A study of Mus musculus with 59 samples.

Results

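The 32 genes described here are genes that mouse astrocytes express strongly, chosen by symbol and grouped by what their products do: glutamate, GABA and amino acid handling, channels and gap junctions, metabolism, filaments and calcium binding, receptors and cell surface proteins, secreted proteins, and transcriptional regulators. Each symbol matched 1 Ensembl identifier of the deposited table of 18088 genes, and all 32 genes passed the filter on low values. RNA was sequenced from the prefrontal cortex of 59 C57BL/6J mice at postnatal day 25, of which 30 were Dyrk1a+/I48X and 29 were wild type. Dyrk1a encodes a protein kinase, and I48X names the mutant allele carried on 1 copy of the gene; the labels name no deletion limited to astrocytes. Pups of both genotypes had received vehicle, lithium or fluoxetine, a serotonin reuptake inhibitor, over 3 weeks (days 3 to 24), in maternal milk. Genotype, treatment and sex gave 12 groups of 5 mice, except wild-type fluoxetine males with 4. Litters are not named in the labels; since a drug reached all pups of a dam, litter and treatment cannot be told apart, and the p-values below measure the spread among mice that may be litter mates.

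Levels are normalised counts, which are read counts divided by a size factor of the library, and levels are compared between genes only after division by the length of the gene's merged exons in kilobases. Differences are log2 differences of the value plus 1, given with the standard error (SE), and a gene passed the test where the adjusted p of limma, corrected over all 17901 genes tested, was under 0.05. Counts at an unadjusted p under 0.05 are given without the share of all genes at that threshold. They cannot be set against the shares of genes that passed. Those shares belong to the main fit. Counts under other settings, or with libraries left out, have no share of all genes beside them unless one is given. Recovered library totals ran from 24391022 to 33842466 counts, and in none of 116 pairs of replicates could counting error alone account for the difference. Dyrk1a RNA was not lower in the heterozygous libraries: it ran from 2141 to 4214 normalised counts (median 2319.7) in 30 heterozygous libraries and from 2066 to 2327 (median 2185) in 29 wild-type libraries, with a log2 difference of 0.13 ± 0.03 over all treatments (limma adjusted p = 0.00768). Without heterozygous fluoxetine male replicates 3 and 4, which stand apart, it was 0.09 ± 0.01 (limma adjusted p = 0.00029). Within vehicle, lithium and fluoxetine it did not pass, at 0.06 ± 0.05, 0.09 ± 0.05 and 0.23 ± 0.05 (limma adjusted p = 0.451, 0.311 and 0.113). The heterozygous fluoxetine males averaged 2935 ± 812 (SD, n = 5) against means of 2262 to 2355 in the other heterozygous groups. The RNA level of the targeted gene therefore gives no check of the genotype labels, and groups are named as labelled. In this tissue a lower level of a gene can mean fewer astrocytes or less RNA in each. It can also mean less RNA from other cells that express the gene, or another share of neighbouring tissue. These cannot be told apart in bulk RNA.

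Astrocytes clear glutamate and GABA from the synapse, turn glutamate into glutamine, buffer potassium and water at their endfeet on blood vessels, and are joined to each other by gap junctions. In many injuries and inflammatory states they raise the intermediate filament genes Gfap and Vim, a response usually called reactive astrogliosis. Astrocytes of different brain regions differ in the balance of these genes, and the GABA transporter gene Slc6a11 and the glutamate transporter gene Slc1a2 are known to differ between regions.

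Promoter sequence was available in RefSeq (GRCm38.p6) for 28 of the 32 genes, in 35 windows of the 250 bases before an annotated start; Aqp4, Sox9, Atp1b2 and Clu had none. Both strands were searched for the NFI half-site TTGGCA, a SOX core (ACAAAG or ACAATG), an AP-1 site (TGAGTCA or TGACTCA) and a STAT site (TTCNNNGAA), and in the windows shown no match overlapped another. The NFI half-site was in 4 of the 35 windows, against 12.3% of all 32851 windows of that length (those of Apoe, Hepacam, S100b and Aldoc), and the SOX core in 1 (Apoe), against 25.2%. An AP-1 site was in 1 window, that of Gja1, against 4.46% of all windows, and a STAT site in 5 (Agt, Acsbg1, Aldoc, Ntsr2 and Slc1a3), against 7.02%. Shown are the promoters, free of annotated exons, of the genes that passed the test in vehicle males and held a motif (Apoe, Agt and S100b), and that of Slc6a11, which passed with a large difference and held none. Capitals mark the motifs: the SOX core in Apoe, read on both strands, the STAT site in Agt and the NFI half-site in S100b. Slc6a11 is at chr6:114130991-114131240 on the plus strand, Apoe at chr7:19699189-19699438 on the minus strand, Agt at chr8:124569707-124569956 on the minus strand and S100b at chr10:76253586-76253835 on the plus strand, each written 5′ to 3′ towards its start.
Slc6a11: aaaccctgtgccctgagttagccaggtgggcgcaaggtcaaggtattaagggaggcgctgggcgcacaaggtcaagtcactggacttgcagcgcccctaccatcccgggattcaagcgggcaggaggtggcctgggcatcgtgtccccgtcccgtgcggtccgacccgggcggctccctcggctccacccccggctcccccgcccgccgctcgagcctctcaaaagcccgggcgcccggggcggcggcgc
Apoe: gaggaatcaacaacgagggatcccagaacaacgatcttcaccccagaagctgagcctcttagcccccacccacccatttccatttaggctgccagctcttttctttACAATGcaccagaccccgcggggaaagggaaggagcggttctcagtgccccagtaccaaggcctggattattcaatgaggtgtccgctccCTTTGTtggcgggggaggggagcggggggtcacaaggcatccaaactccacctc
Agt: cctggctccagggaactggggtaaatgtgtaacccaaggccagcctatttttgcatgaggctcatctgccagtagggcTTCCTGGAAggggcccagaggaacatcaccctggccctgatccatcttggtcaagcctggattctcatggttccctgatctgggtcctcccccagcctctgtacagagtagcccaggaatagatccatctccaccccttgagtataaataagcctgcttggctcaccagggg
S100b: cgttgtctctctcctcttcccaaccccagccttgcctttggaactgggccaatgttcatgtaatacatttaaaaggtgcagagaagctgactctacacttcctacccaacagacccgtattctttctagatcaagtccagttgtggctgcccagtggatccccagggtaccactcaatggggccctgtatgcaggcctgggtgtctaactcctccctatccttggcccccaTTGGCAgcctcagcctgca
The Slc6a11 window was 71.2% G and C, against 57.2% for Apoe, 55.6% for Agt and 53.6% for S100b. These matches describe letters in a window only.

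Levels differed widely among these astrocyte genes, and they were not set against those of other genes. Per kilobase, the lipid carrier gene Apoe reached 12949 normalised counts, glutamine synthetase (Glul) 12469.8, the main glutamate transporter Slc1a2 5916 and the glycolytic enzyme gene Aldoc 4806. Clu, a secreted chaperone, reached 3988 and Ndrg2, a cytoplasmic protein of astrocytes, 3322. The lowest were Cbs, an enzyme of homocysteine metabolism, at 96.7, the transcription factor gene Sox9 at 108 and angiotensinogen (Agt) at 114 normalised counts per kilobase. Glul, Slc7a10 and Fgfr3 each overlap another gene of the table on the opposite strand (Teddm2, Lrp3 and G630022F23Rik), and whether strand was used in counting is not given in the sources used here.

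Most of the 32 genes were steady between mice and a few were not. The coefficient of variation over the 59 libraries was 6.30% for Atp1b2, a sodium pump subunit, and 7.01% for Hepacam, an adhesion molecule. It was 44.4% for Slc6a11, 52.6% for Gfap and 67.2% for Agt. Agt ran from 69.5 to 638 normalised counts, Gfap from 2532 to 14903 and Slc6a11 from 2549 to 16295. The summed level of the 32 genes stayed between 241089 and 335135 (median 273880) in the 59 libraries. Its largest parts were Slc1a2, Glul, Apoe and Slc1a3, with means of 77689, 41437, 27686 and 20636.5 normalised counts. Agt, Gfap and Slc6a11 averaged 216, 4383 and 6404, so the sum says little about these variable genes.

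**Figure D1:**
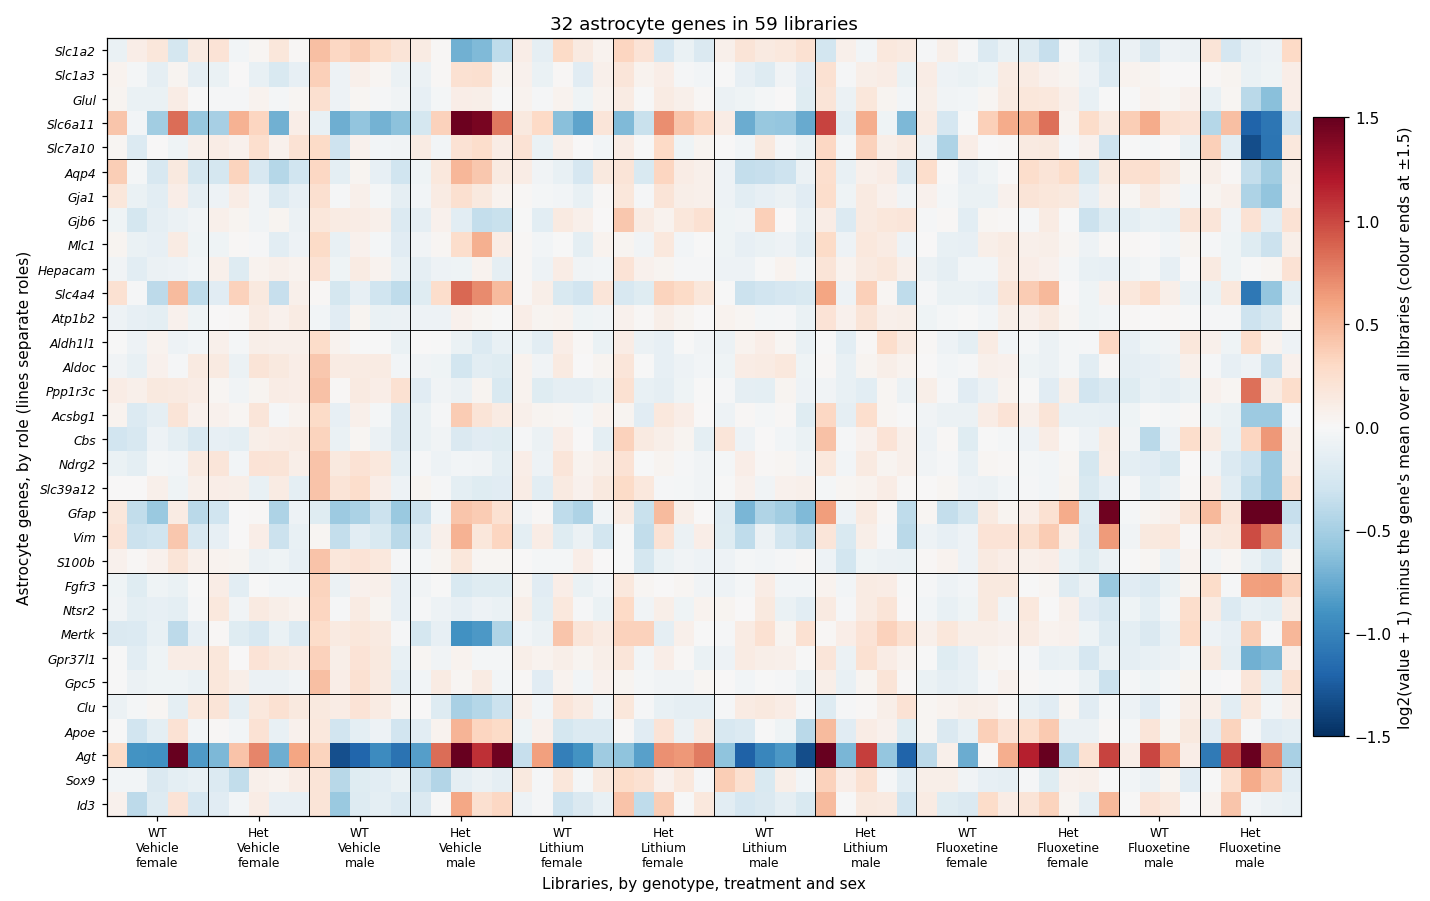
Log2(value + 1) of each of the 32 astrocyte genes (rows, by role) in each of the 59 libraries (columns, by genotype, treatment and sex), minus the gene's mean over all libraries; red is higher and blue lower. Slc6a11, Slc4a4 and Agt are red in 3 or more heterozygous vehicle males. Slc1a2 and Mertk are bluest there in replicates 3, 4 and 5. Gfap is red in replicates 3 and 4 of the heterozygous fluoxetine males and in replicate 5 of the heterozygous fluoxetine females.

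The defining genes Gfap, Slc1a2, Aqp4 and Aldh1l1 show how far the groups lie apart (mean ± SD, n = 5, and n = 4 for wild-type fluoxetine males). Gfap averaged 3590.2 ± 826 and 3053 ± 344 normalised counts in wild-type vehicle females and males and 3653 ± 519 and 4529 ± 918 in heterozygous ones. Under lithium Gfap averaged 3597 ± 524 and 2891 ± 411 in wild-type and 4334 ± 873 and 4354 ± 1166 in heterozygous females and males. Under fluoxetine Gfap averaged 3868 ± 551 and 4259 ± 273 in wild-type and 5953 ± 3057 and 8495 ± 5566 in heterozygous females and males. The 2 highest means and by far the widest spreads of Gfap were those of the heterozygous fluoxetine groups. Slc1a2 averaged 77664 ± 9560.0 and 96037 ± 6506 normalised counts in wild-type vehicle females and males and 81009 ± 5957 and 63048 ± 16948 in heterozygous ones. Under lithium Slc1a2 averaged 82019 ± 8578 and 85648 ± 3459 in wild-type and 77223 ± 14025 and 77714 ± 9153 in heterozygous females and males. Under fluoxetine Slc1a2 averaged 74197 ± 5657 and 70871 ± 3216 in wild-type and 67453 ± 5803 and 78019 ± 12429 in heterozygous females and males. The highest and the lowest Slc1a2 means were both in vehicle males. Aqp4 averaged 4466 ± 852 and 4324 ± 721 normalised counts in wild-type vehicle females and males and 3964 ± 913 and 5212 ± 814 in heterozygous ones. Under lithium Aqp4 averaged 4342 ± 489 and 3759 ± 369 in wild-type and 4747 ± 631 and 4523 ± 579 in heterozygous females and males. Under fluoxetine Aqp4 averaged 4482 ± 483 and 4958 ± 336 in wild-type and 4865 ± 642 and 4071 ± 757 in heterozygous females and males. The Aqp4 means differed by a ratio of 1.39 between the highest, in heterozygous vehicle males, and the lowest, in wild-type lithium males. Aldh1l1 averaged 1457 ± 55.4 and 1538 ± 157 normalised counts in wild-type vehicle females and males and 1549.8 ± 53.0 and 1405 ± 82.0 in heterozygous ones. Under lithium Aldh1l1 averaged 1445 ± 101 and 1484 ± 92.9 in wild-type and 1458 ± 91.8 and 1547 ± 171 in heterozygous females and males. Under fluoxetine Aldh1l1 averaged 1465 ± 104 and 1471 ± 134 in wild-type and 1525 ± 182 and 1543 ± 150.5 in heterozygous females and males. Aldh1l1 was the steadiest of these, with group means from 1405 to 1549.8, a ratio of 1.10 between the highest and the lowest.

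The tissue label was checked against marker genes of cortical excitatory neurons and of the olfactory bulb. Markers of other cell types are not given here. The 9 markers of cortical excitatory neurons, such as Slc17a7 and Camk2a, were present in all libraries, with a summed level of 87707 to 198212 (median 162035). Markers of the olfactory bulb, which lies in front of the prefrontal cortex, varied much more: the summed level of 11 of them, among them Doc2g, Cdhr1, Th and Eomes, ran from 933 to 37527 (median 10383). The mean of these 11 genes, as log2 deviation from all libraries, was -0.49, -3.12, -2.56, -2.72 and -2.14 in the 5 wild-type vehicle males and -0.07, 1.14, 2.46, 2.42 and 1.87 in the 5 heterozygous vehicle males, which did not overlap. In vehicle females it averaged -0.10 ± 1.85 in wild-type and -0.19 ± 1.78 in heterozygous mice (SD, n = 5 each), so that it did not separate the genotypes there. The labels do not say how the tissue was cut, and how much of any astrocyte difference goes with bulb tissue was measured as a slope and as a covariate, given beside each result. In 2 libraries, heterozygous fluoxetine male replicates 3 and 4, the mean of the reactive astrocyte genes stood at 1.67 and 1.0 and that of glucocorticoid-responsive genes at 1.54 and 0.56, against -0.15 to 0.20 and -0.10 to 0.14 in the other 3 males of the group, and results that rest on them are given with and without them.

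Many astrocyte genes moved with the bulb markers inside the groups. With 1 mean per group, 16 of the 32 genes had a slope on the bulb mean that passed the test, 13 upward and 3 downward, where 49.3% of all tested genes passed (22.7% upward and 26.6% downward). Upward were Agt, whose product is the precursor of angiotensin, with 0.39 ± 0.06 log2 units per log2 unit of the bulb mean (limma adjusted p = 8.45e-07), Slc6a11 with 0.33 ± 0.02 (limma adjusted p = 1.72e-18) and the sodium bicarbonate cotransporter gene Slc4a4 with 0.17 ± 0.02 (limma adjusted p = 7.18e-12). The water channel gene Aqp4 followed with 0.09 ± 0.02, Id3 with 0.08 ± 0.02, Apoe with 0.08 ± 0.02 and Vim with 0.07 ± 0.02. Gja1, Acsbg1, Mlc1, Slc1a3, Glul and Atp1b2 had slopes from 0.02 to 0.05. Downward were Slc1a2 with -0.08 ± 0.02, the phagocytic receptor gene Mertk with -0.07 ± 0.02 and Clu with -0.06 ± 0.01. All 16 slopes kept passing when any 1 of the 59 libraries was left out, and with quantile normalization those of Slc1a2 and Clu did not pass. Of the 7 channel and junction genes 5 had an upward slope, whereas of the 7 metabolism genes 1 did (Acsbg1). The share of astrocyte genes with a slope in either direction was close to that of all genes. By direction it was not, with 13 of the 32 upward and 3 downward, where 22.7% and 26.6% of all genes were. Whether this split is particular to astrocyte genes was not tested.

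**Figure D2:**
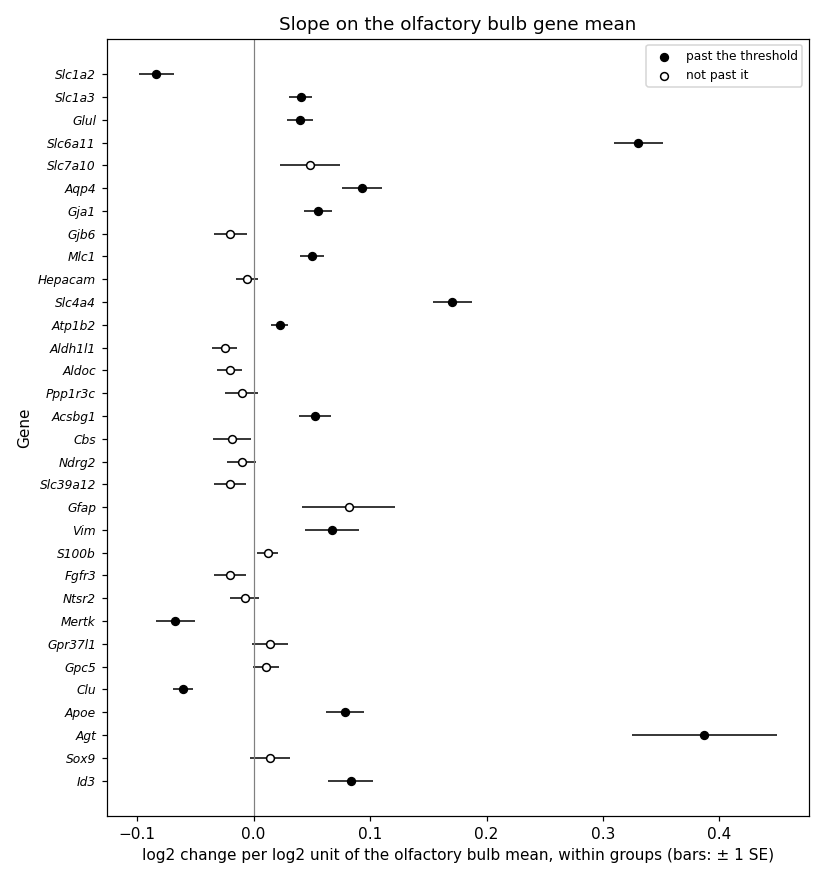
Slope of each of the 32 astrocyte genes on the mean of 11 olfactory bulb genes, in log2 units per log2 unit, within the 12 groups (points; bars are ± 1 SE; filled points passed the limma test). Agt, Slc6a11 and Slc4a4 lie far to the right, at 0.39, 0.33 and 0.17, and Slc1a2, Mertk and Clu lie left of 0.

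In vehicle males, heterozygous mice had more Slc6a11, Slc4a4, Agt, Apoe, Vim and Id3 RNA than wild-type mice and less Slc1a2, Mertk and Clu, and the transporter and secreted protein genes went both ways. Of the metabolic genes 4 of 7 were lower. Of the 32 genes 15 passed the test, 6 higher and 9 lower, where 36.7% of all tested genes passed (16.7% higher and 20.0% lower), so their share was a little above the background. The genotype difference in these males stands beside the difference in bulb markers given above, where 11 of 11 bulb markers passed as higher and 8 of 9 cortical excitatory neuron markers as lower.

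Among the transporters, Slc1a2, which removes most synaptic glutamate, had 105016, 95243, 99348, 92635 and 87942 normalised counts in the wild-type vehicle males and 83629.9, 77859, 46559, 48329.8 and 58865 in the heterozygous ones. The lowest wild-type male was above the highest heterozygous male, and heterozygous replicates 3, 4 and 5 were far below replicates 1 and 2. The log2 difference was -0.65 ± 0.12 (limma adjusted p = 0.000395). Slc6a11, which takes up GABA, had 5438, 3526, 3891, 3581 and 3832 in wild-type and 4899, 7457, 16295, 15814 and 10189.9 in heterozygous males, so replicates 3 and 4 were again the extremes and heterozygous replicate 1 lay below wild-type replicate 1. Slc6a11 rose by 1.31 ± 0.31 on the log2 scale (limma adjusted p = 0.00122). Slc4a4 had 4662, 3833, 4200.5, 3729 and 3537 in wild-type and 4051, 5514, 8307, 7491 and 6379 in heterozygous males, which overlapped, and rose by 0.63 ± 0.18 (limma adjusted p = 0.00497). The remaining uptake genes Slc1a3, Glul and the amino acid exchanger gene Slc7a10 did not pass, with log2 differences of 0.03, -0.02 and 0.14. Of the gap junction genes, Gjb6 fell with a log2 difference of -0.24 ± 0.09 (limma adjusted p = 0.0322), while Gja1, at 0.08, did not pass. Aqp4, Mlc1, Hepacam and Atp1b2 did not pass either, with log2 differences of 0.27, 0.17, -0.12 and 0.06.

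Among the receptors, Mertk, which astrocytes use to engulf synapses and debris, had 1351, 1231, 1259.5, 1234 and 1104 normalised counts in wild-type males and 931, 1031, 597, 616 and 821 in heterozygous males. All 5 heterozygous males were below all 5 wild-type males, and the log2 difference of -0.66 ± 0.12 (limma adjusted p = 0.000377) had the smallest p of the 32 genes. The other 4 receptor and surface genes, Fgfr3, Ntsr2, Gpr37l1 and Gpc5, did not pass, with log2 differences between -0.18 and -0.11. Among the secreted proteins, Clu had 15058, 14705, 15676, 14898 and 13882 in wild-type and 13655, 11939, 9724, 10135 and 10931 in heterozygous males, without overlap, and fell by 0.41 ± 0.07 on the log2 scale (limma adjusted p = 0.000395). Agt had 221, 69.8, 76.3, 90.9 and 81.3 in wild-type and 98.6, 316, 578, 377 and 484 in heterozygous males. Heterozygous replicate 1 lay within the wild-type range and the other 4 lay above it, and Agt rose by 1.70 ± 0.50 (limma adjusted p = 0.00681). Apoe, with 30582, 22508, 24779, 25979 and 22423 against 24637, 28359, 39107, 34236 and 33399, rose by 0.33 ± 0.12 (limma adjusted p = 0.0269).

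Of the 7 metabolism genes 4 fell and none rose. Aldoc, an aldolase of glycolysis, had 20720.1, 16953, 17043, 17083 and 15227 normalised counts in wild-type males and 15011, 14901, 12939, 13949.5 and 13751 in heterozygous males, without overlap, a log2 difference of -0.30 ± 0.07 (limma adjusted p = 0.000751). The glycogen-targeting subunit gene Ppp1r3c differed by -0.28 ± 0.09, the zinc transporter gene Slc39a12 by -0.27 ± 0.09 and Ndrg2 by -0.23 ± 0.08, with limma adjusted p of 0.00848, 0.0111 and 0.021. The folate enzyme gene Aldh1l1, a defining gene of astrocytes, did not pass: it averaged 1538 ± 157 in wild-type and 1405 ± 82.0 in heterozygous males (SD, n = 5 each), a log2 difference of -0.13 ± 0.07. Acsbg1, an acyl-CoA synthetase gene, and Cbs did not pass, at 0.11 and -0.14. Of the filament genes Vim rose by 0.41 ± 0.15 (limma adjusted p = 0.0324), while Gfap, with 3566, 2785, 2928, 3235 and 2752 in wild-type and 3251, 3939, 5402, 5285 and 4767 in heterozygous males, had 0.55 ± 0.25 and did not pass. The calcium-binding protein gene S100b fell with a log2 difference of -0.14 ± 0.06 (limma adjusted p = 0.0497). Of the regulators Id3, an inhibitor of helix-loop-helix transcription factors, rose by 0.37 ± 0.14 (limma adjusted p = 0.0324), and Sox9 did not pass, at -0.09.

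The male groups did not overlap for 4 of the 32 genes (Slc1a2, Aldoc, Mertk and Clu), where 12% of all genes did not overlap. Of the 15 calls, 9 were also among the 16 genes with a slope on the bulb mean, which is 60% of the former and 56.25% of the latter. Of all tested genes 49.3% had such a slope and 36.7% passed in vehicle males. The sign was the same in all 9, and both results use these male libraries. The overlap and the sign match over all genes are not given, so neither is a result particular to these genes. With the bulb mean as a covariate 0 of the 32 genes passed in the males (limma; the smallest adjusted p was 0.646). In that fit 0% of all tested genes passed, so the loss of the calls is not particular to these genes. Without the covariate, 8 of the 15 passed whichever 1 of the 10 males was left out (Slc1a2, Slc6a11, Slc4a4, Aldoc, Ppp1r3c, Mertk, Clu and Agt), and the count fell to 9 without heterozygous replicate 5. In the covariate fit the log2 difference of Slc6a11 went from 1.31 to 0.06, that of Agt from 1.70 to 0.24 and that of Slc4a4 from 0.63 to -0.01, and that of Mertk went from -0.66 to -0.41 and that of Slc1a2 from -0.65 to -0.33. With only the 2 groups compared in the fit 11 passed: Apoe, Gjb6, Id3, Ndrg2 and S100b did not, and Gfap did. With quantile normalization 17 passed: Aldoc, Ndrg2 and S100b did not, and Aqp4, Atp1b2, Gfap, Mlc1 and Slc1a3 did. S100b did not pass with TMM factors either. Shares of all genes are not given for these other settings, so their counts are not results particular to these genes. The bulb mean does not overlap between these 2 groups, so genotype and bulb tissue cannot be told apart in vehicle males.

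**Figure D3:**
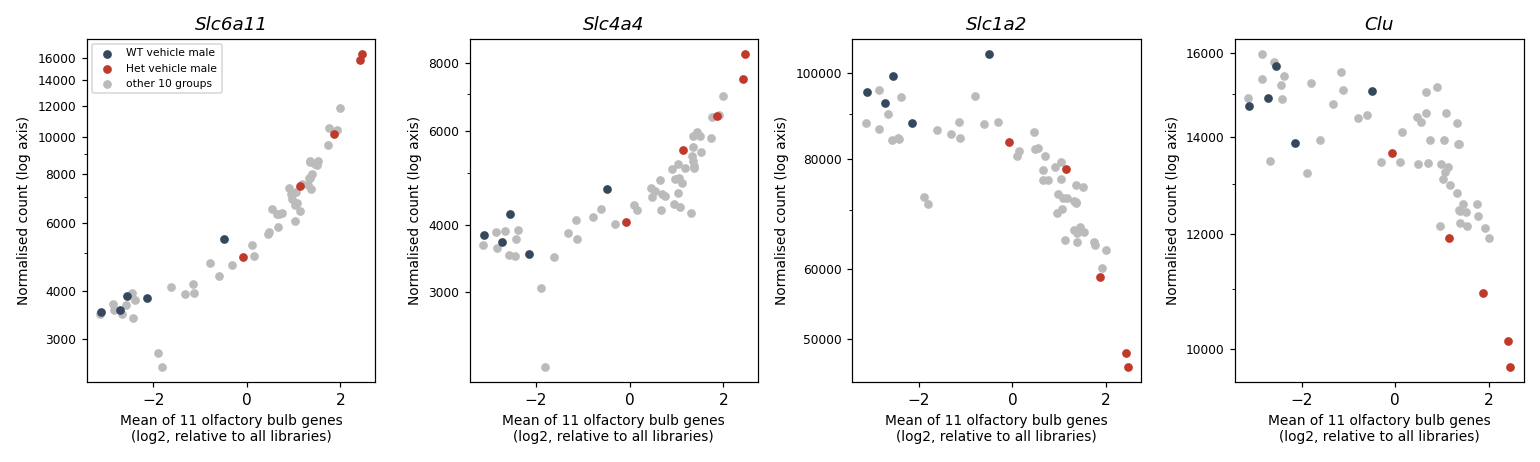
Normalised counts (log axis) of Slc6a11, Slc4a4, Slc1a2 and Clu in the 59 libraries, against the mean of 11 olfactory bulb genes in the same library (log2, relative to all libraries); dark points are wild-type vehicle males, red points heterozygous vehicle males and grey points the other 10 groups. The vehicle males lie at opposite ends of the bulb mean, from -3.12 to -0.49 and from -0.07 to 2.46. The grey points go upward with the bulb mean for Slc6a11 and Slc4a4 and downward for Slc1a2 and Clu. The highest and the lowest Slc1a2 of the 59 libraries, 105016 and 46559, are a wild-type and a heterozygous vehicle male.

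In vehicle females none of the 32 genes passed, and neither did any other gene (0% of all tested genes with limma, and 0 of the 32 with edgeR; 5 of the 32 had an unadjusted p under 0.05). Slc1a2 had 71649, 82028, 86244, 63886 and 84512 normalised counts in wild-type and 88125, 74406, 78347, 86459 and 77708 in heterozygous females, and Mertk had 966, 974, 1039.6, 853 and 1027 and 1135, 990.2, 947, 1041 and 969, with overlap in both. The log2 differences in females were 0.07 ± 0.12 for Slc1a2, 0.07 ± 0.12 for Mertk, -0.07 ± 0.31 for Slc6a11 and 0.04 ± 0.25 for Gfap. Aqp4 averaged 4466 ± 852 in wild-type and 3964 ± 913 in heterozygous females, and Aldh1l1 1457 ± 55.4 and 1549.8 ± 53.0 (SD, n = 5 each). The genes with the smallest unadjusted p were Atp1b2 at 0.13 ± 0.05, Ntsr2 at 0.18 ± 0.08, S100b at -0.12 ± 0.06, Ndrg2 at 0.16 ± 0.08 and Cbs at 0.21 ± 0.10.

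The genotype difference itself differed between the sexes for 8 of the 32 genes, where 16.0% of all tested genes passed this interaction test (9.70% more positive in females and 6.26% more negative). It was more positive in females than in males for Clu by 0.54 ± 0.11, Mertk by 0.72 ± 0.16, Slc1a2 by 0.71 ± 0.17, Aldoc by 0.39 ± 0.09, Ndrg2 by 0.39 ± 0.11, Gjb6 by 0.36 ± 0.13 and the neurotensin receptor gene Ntsr2 by 0.32 ± 0.11 on the log2 scale. It was more negative in females for Slc6a11, at -1.38 ± 0.44. Adjusted p from limma ran from 0.0144 for Clu to 0.0414 for Gjb6. Without heterozygous male replicate 3, heterozygous male replicate 4 or wild-type female replicate 4, each left out alone, 0 passed; without heterozygous female replicate 1 or 4 or wild-type female replicate 1, between 4 and 5 did. With the bulb mean as a covariate 0 passed, and with only the 4 vehicle groups in the fit 0 passed. Without heterozygous fluoxetine male replicates 3 and 4, which enter only through the shared spread, 13 did. Gjb6 and Ntsr2 did not pass with TMM factors, and these 2, Aldoc and Ndrg2 did not with quantile normalization. Over all 12 groups, none of the 32 genes differed between females and males (0 with limma and with edgeR; 2 had an unadjusted p under 0.05; 0.156% of all tested genes passed, 0.106% higher in females and 0.0503% lower).

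**Figure D4:**
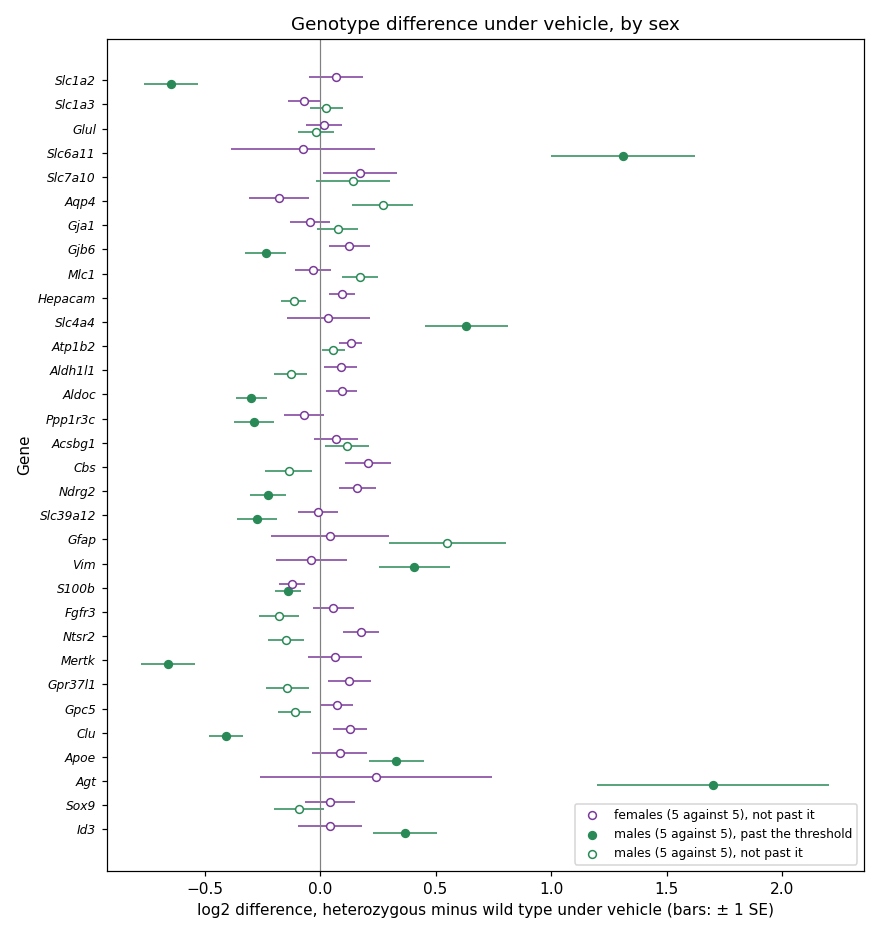
Log2 difference between heterozygous and wild-type mice under vehicle for each of the 32 astrocyte genes, in females (purple) and males (green), 5 against 5 mice in each; bars are ± 1 SE and filled points passed the limma test. The female points lie between -0.18 and 0.24, and the male points spread from -0.66 to 1.70.

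Averaged over the sexes, 4 of the 32 genes differed between the genotypes under vehicle, all lower in heterozygous mice, where 13.1% of all tested genes passed (6.03% higher and 7.12% lower). Slc1a2 ran from 46559 to 88125 (median 77783) normalised counts in 10 heterozygous mice and from 63886 to 105016 (median 87093) in 10 wild-type mice, with overlap, and a log2 difference of -0.29 ± 0.08 (limma adjusted p = 0.0277). Mertk, with 597 to 1135 (median 958) against 853 to 1351 (median 1072), differed by -0.30 ± 0.08 (limma adjusted p = 0.0259). In females alone neither Slc1a2 nor Mertk was lower in heterozygous mice. Their genotype differences differed between the sexes by 0.71 and 0.72 (limma interaction test, adjusted p = 0.0166 for both). S100b and Ppp1r3c were below the wild-type mean of their sex in 10 of 10 heterozygous mice. S100b ran from 2372 to 2905 (median 2640.2) against 2553 to 3471 (median 2807) and differed by -0.13 ± 0.04 (limma adjusted p = 0.0338), and Ppp1r3c ran from 856 to 1077 (median 993) against 1014 to 1361 (median 1088) and differed by -0.18 ± 0.06 (limma adjusted p = 0.0469). Gfap, Aqp4 and Aldh1l1 did not pass, at 0.30 ± 0.18, 0.05 ± 0.09 and -0.02 ± 0.05. The count of 4 depends on single libraries: it was 0 without heterozygous female replicate 3 or 5, heterozygous male replicate 3 or 4, or wild-type female replicate 3 or 5, and 7 to 11 without heterozygous female replicate 4, heterozygous male replicate 1 or 2, or wild-type female replicate 1 or 4. Without heterozygous female replicate 2, heterozygous male replicate 5 or wild-type male replicate 2 it was 2. Ppp1r3c did not pass with TMM factors or edgeR, S100b and Slc1a2 did not with quantile normalization, Slc6a11 passed with edgeR and Atp1b2 with quantile normalization. With the bulb covariate, or with only the 4 vehicle groups in the fit, the count was 0, and without the 2 heterozygous fluoxetine males it was 10.

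Under lithium and under fluoxetine no astrocyte gene differed between the genotypes by limma. Under lithium 12 of the 32 had an unadjusted p under 0.05, and under fluoxetine 5 did, for which no share of all genes is given. At the adjusted threshold 0.0112% of all tested genes passed in each comparison, all of them higher under lithium and 0.00559% in each direction under fluoxetine. With edgeR 0 of the 32 passed under lithium and 1, Gfap, under fluoxetine. Under lithium the median log2 difference of the 32 genes was 0.09, against -0.01 for all genes. The 32 genes moved together in part, with a median r of 0.28 over 496 pairs, so they are not 32 separate observations. The smallest unadjusted p had Id3 at 0.27 ± 0.10, Hepacam at 0.11 ± 0.04 and Gja1 at 0.16 ± 0.06. The bulb mean averaged 0.26 and 0.27 in heterozygous females and males under lithium and -0.44 and -1.51 in wild-type ones, and its part in that median was not tested. Under fluoxetine Gfap had 0.62 ± 0.18 (limma adjusted p = 0.184).

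Over all treatments 8 of the 32 genes differed between 30 heterozygous and 29 wild-type mice, 5 higher and 3 lower, where 21.4% of all tested genes passed (8.97% higher and 12.4% lower). Gfap, the glial intermediate filament, ran from 2933 to 14903 (median 4325) normalised counts in heterozygous and from 2532 to 4632 (median 3391) in wild-type mice, and 25 of 30 heterozygous mice were above the wild-type mean of their own sex and treatment. Gfap rose by 0.44 ± 0.10 (limma adjusted p = 0.00762) and, without heterozygous fluoxetine male replicates 3 and 4, by 0.33 (limma adjusted p = 0.0122). Agt rose by 0.72 ± 0.21 (limma adjusted p = 0.0161), above that mean in 21 of 30, and Id3 by 0.18 ± 0.06, Vim by 0.19 ± 0.06 and Cbs by 0.12 ± 0.04, with limma adjusted p of 0.0244, 0.0322 and 0.0397. Without those 2 males Vim, Cbs and Slc1a2 did not pass (limma adjusted p = 0.0721, 0.0812 and 0.0518), and Atp1b2, Gja1, Slc4a4 and Slc7a10 did, 9 in all. Of the lower genes, S100b fell by 0.10 ± 0.02 (limma adjusted p = 0.00673), below the wild-type mean in 26 of 30 mice, Slc1a2 fell by 0.14 ± 0.05 (limma adjusted p = 0.0347), below it in 18 of 30, and Clu fell by 0.08 ± 0.03 (limma adjusted p = 0.0447). Clu did not pass with TMM factors, edgeR or quantile normalization. Cbs and Slc1a2 did not with quantile normalization either, where Apoe and Atp1b2 did. With the bulb covariate 1 passed, S100b, with a log2 difference of -0.11 (limma adjusted p = 0.0174), and Gfap had 0.38 (limma adjusted p = 0.0575). The count was 4 without heterozygous lithium female replicate 3 or heterozygous lithium male replicate 1, and 5 without heterozygous fluoxetine female replicate 2, heterozygous vehicle male replicate 3 or 4, or wild-type vehicle female replicate 5.

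Lithium was followed by more Mertk RNA in heterozygous mice, and Mertk was the only one of the 32 genes that passed there, where 0.497% of all tested genes passed (0.246% higher and 0.251% lower). Mertk had 1423, 1421, 1018, 1184 and 1112 normalised counts in the lithium females and 1135, 1199, 1292, 1421 and 1324 in the lithium males. In the vehicle groups it had 1135, 990.2, 947, 1041 and 969 in females and 931, 1031, 597, 616 and 821 in males. All 10 lithium mice were above the vehicle mean of their sex, the male groups did not overlap while the female groups did, and the log2 difference was 0.48 ± 0.08 (limma adjusted p = 0.000836). With the bulb covariate it was 0.46 (limma adjusted p = 0.000203). These vehicle mice also serve in the genotype comparison, where Mertk was lower in heterozygous males. Gfap, Slc1a2, Aqp4 and Aldh1l1 did not pass under lithium in heterozygous mice, at 0.08 ± 0.18, 0.13 ± 0.08, 0.04 ± 0.09 and 0.02 ± 0.05. Without the 2 heterozygous fluoxetine males in the shared spread 3 genes passed, Gjb6 and Sox9 beside Mertk, and 2 passed without heterozygous lithium male replicate 2 or heterozygous vehicle male replicate 2.

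In wild-type mice 0 of the 32 genes passed under lithium with limma and with edgeR (3 had an unadjusted p under 0.05: Ppp1r3c at -0.24 ± 0.06, S100b at -0.15 ± 0.04 and Sox9 at 0.21 ± 0.08), where 0.162% of all tested genes passed (0.0782% higher and 0.0838% lower). Mertk had 0.15 ± 0.08, Gfap -0.03 ± 0.18, Slc1a2 -0.04 ± 0.08, Aqp4 -0.11 ± 0.09 and Aldh1l1 -0.03 ± 0.05 in wild-type mice. Ppp1r3c passed there without wild-type vehicle male replicate 5 or without the 2 heterozygous fluoxetine males. The lithium difference of no gene differed between the genotypes (0 of 32 with limma and with edgeR, 4 with an unadjusted p under 0.05; 0% of all tested genes passed); for Mertk this difference of differences was 0.33 ± 0.12 (limma adjusted p = 1). Over both genotypes 3 of the 32 genes changed with lithium, where 2.12% of all tested genes passed (1.16% higher and 0.966% lower). Mertk ran from 1018 to 1500.2 (median 1222) in 20 lithium mice and from 597 to 1351 (median 1009) in 20 vehicle mice, and rose by 0.32 ± 0.06 (limma adjusted p = 0.000622). Sox9, a transcription factor that maintains astrocyte identity, ran from 378 to 573 (median 484) against 327 to 507 (median 404) and rose by 0.24 ± 0.05 (limma adjusted p = 0.00788). S100b ran from 2135 to 2768 (median 2503) against 2372 to 3471 (median 2668) and fell with a log2 difference of -0.13 ± 0.03 (limma adjusted p = 0.00475). The ranges overlapped for all 3, and all 3 also passed with the bulb covariate and whichever 1 of the 40 libraries was left out.

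Fluoxetine was followed by more Gfap and Mertk and less Acsbg1 and Gpr37l1 RNA in heterozygous mice, 4 of the 32 genes, where 4.27% of all tested genes passed (2.21% higher and 2.06% lower). Gfap had 4344, 4738, 5957, 3533 and 11194 normalised counts in the fluoxetine females and 5664, 4614, 14903, 14114 and 3183 in the fluoxetine males, against 3291, 4086, 4095, 2933 and 3862 and 3251, 3939, 5402, 5285 and 4767 in vehicle females and males. Male replicates 3 and 4 and female replicate 5 were far above every vehicle mouse, female replicate 3 and male replicate 1 were just above the highest, and the other 5 lay within the vehicle range. The log2 difference of Gfap was 0.63 ± 0.18 (limma adjusted p = 0.0344), and without male replicates 3 and 4 it was 0.28 (limma adjusted p = 0.506). Mertk had 1224, 1165, 1172, 1069 and 979.9 in the fluoxetine females and 1063, 1027, 1445, 1104 and 1579 in the fluoxetine males, above the vehicle mean of its sex in 9 of 10 mice. It rose by 0.39 ± 0.08 (limma adjusted p = 0.00537) and by 0.38 without the 2 males (limma adjusted p = 0.0307). Gpr37l1, an astrocyte receptor gene, had 3829, 3198, 2124, 2196 and 3736 in the fluoxetine males and 3382 to 4023 (median 3601) in the 10 vehicle mice, and Acsbg1 had 3235, 3152, 2310.0, 2308 and 3321 and 3143 to 4392 (median 3512). Replicates 3 and 4 were the lowest males for both genes. The log2 differences were -0.25 ± 0.07 (limma adjusted p = 0.026) and -0.22 ± 0.07 (limma adjusted p = 0.0438), and without the 2 males they were -0.10 and -0.13 and did not pass. Acsbg1 did not pass with quantile normalization either, and Sox9 passed with quantile normalization and, like Fgfr3, with edgeR.

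In those 2 males other astrocyte genes stood apart too. Vim had 1219, 1236, 2182, 1815 and 961 normalised counts in the 5 heterozygous fluoxetine males, with the highest values in replicates 3 and 4. Slc7a10, which exchanges serine and other small amino acids, had 781, 547, 240.5, 283 and 678, Glul 38363, 42268, 31150.5, 26797 and 44167 and Slc4a4 4289.7, 5107, 2182, 3062 and 4144, each lowest in the same 2 replicates. Fgfr3, a fibroblast growth factor receptor gene, had 2778, 2275, 3527, 3553 and 2929 and was highest in them. Their bulb means of -1.81 and -1.89 were also the lowest of the group, and the part of bulb tissue in these values was not tested. Over the whole list the mean of the 32 genes was close to that of all libraries in both, at -0.00 and -0.12 on the log2 scale.

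The count of 4 in heterozygous mice depended on single libraries. It was 1 without male replicate 3 or 4, 2 without fluoxetine female replicate 3 or vehicle female replicate 1, 3 or 5, and 8 to 9 without fluoxetine male replicate 1, 2 or 5. With the bulb covariate it was 7, Slc6a11 at -0.29, Slc4a4 at -0.24 and Sox9 at 0.25 passing as well, and with only the groups compared in the fit it was 0. Slc1a2, Aqp4 and Aldh1l1 had 0.03 ± 0.08, -0.03 ± 0.09 and 0.05 ± 0.05 and did not pass. In wild-type mice 0 of the 32 genes passed under fluoxetine with limma and with edgeR (9 had an unadjusted p under 0.05), where 0.447% of all tested genes passed (0.184% higher and 0.263% lower). There Gfap had 0.30 ± 0.18, Mertk 0.06 ± 0.08, Slc1a2 -0.25 ± 0.09, Aqp4 0.11 ± 0.10 and Aldh1l1 -0.03 ± 0.05. Ppp1r3c had the smallest p, with -0.23 ± 0.06 (limma adjusted p = 0.074). Ppp1r3c passed there without heterozygous fluoxetine male replicates 3 and 4, which enter only through the shared spread. With only the groups compared in the fit, Ppp1r3c and Slc1a2 passed. The fluoxetine difference of no gene differed between the genotypes (0 of 32 with limma and with edgeR, 8 with an unadjusted p under 0.05; 0% of all tested genes passed), although 3 passed without heterozygous fluoxetine male replicate 2 or heterozygous vehicle male replicate 1. The difference of differences was 0.32 ± 0.26 for Gfap, 0.33 ± 0.09 for Ppp1r3c and -0.94 ± 0.32 for Slc6a11.

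Over both genotypes 4 of the 32 genes changed with fluoxetine, where 3.09% of all tested genes passed (1.45% higher and 1.64% lower). Gfap ran from 3176 to 14903 (median 4344) normalised counts in 19 fluoxetine mice and from 2752 to 5402 (median 3428) in 20 vehicle mice, and rose by 0.47 ± 0.13 (limma adjusted p = 0.033). Mertk rose by 0.23 ± 0.06 (limma adjusted p = 0.0222). Gpr37l1, with 2124 to 3829 (median 3262) against 3128 to 4442 (median 3676), fell with a log2 difference of -0.19 ± 0.05 (limma adjusted p = 0.0154), and Ndrg2, with 7705 to 12129.6 (median 10818) against 10104 to 15046 (median 11054), with -0.15 ± 0.04 (limma adjusted p = 0.0315). All 4 ranges overlapped. Without the 2 heterozygous males Gfap and Ndrg2 did not pass, and 2 genes were left. Ndrg2 did not pass with quantile normalization either. The count was 2 without heterozygous fluoxetine male replicate 4 or wild-type fluoxetine male replicate 4, 8 without heterozygous fluoxetine male replicate 5, and 8 with the bulb covariate. Across all group comparisons Mertk passed in 7 of 16, and S100b and Slc1a2 in 4 each, several of which share mice.

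**Figure D5:**
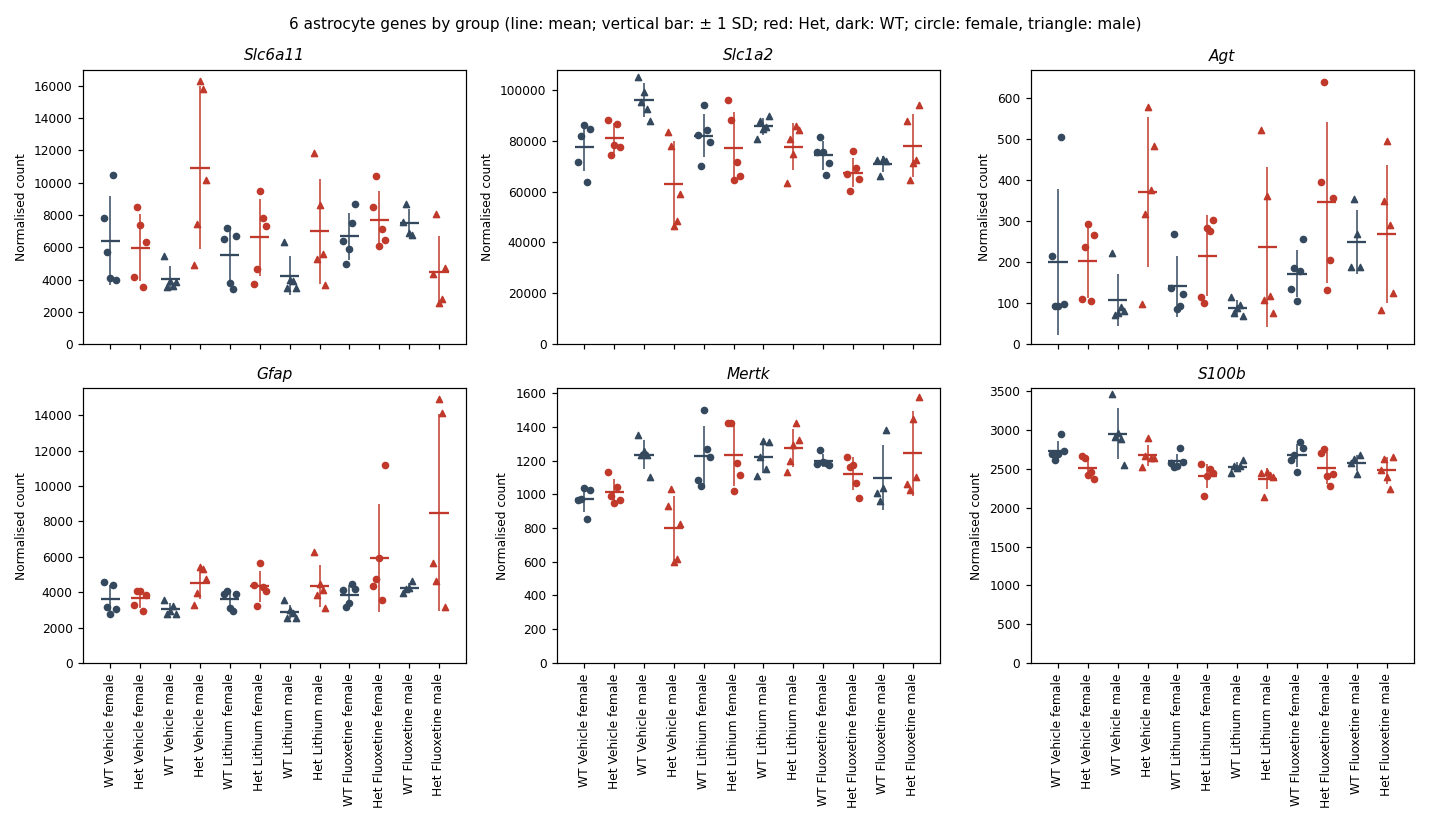
Normalised counts of Slc6a11, Slc1a2, Agt, Gfap, Mertk and S100b in each mouse (points), by treatment, sex (circles female, triangles male) and genotype (dark wild type, red heterozygous), with the group mean and ± 1 SD. The highest Gfap points, 14903 and 14113.5, are heterozygous fluoxetine males, and the lowest Mertk points, 597 and 616, are heterozygous vehicle males.

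Of the 32 genes 21 passed in at least 1 of the 16 comparisons between groups and 11 in none, where 46.3% of all tested genes passed in at least 1. Those 11 were Slc1a3, Glul and Slc7a10 among the uptake genes, Aqp4, Gja1, Mlc1, Hepacam and Atp1b2 among the channel and junction genes, Aldh1l1, and the receptor and surface genes Fgfr3 and Gpc5. Slc7a10, Hepacam, Aldh1l1, Fgfr3 and Gpc5 had no slope on the bulb mean that passed either. Within groups the genes moved together only in part: over the 496 pairs the correlation of deviations from the group means was positive for 361, with a median of 0.28, over 59 libraries that share depth and tissue composition. Slc6a11 and Slc4a4 went together with r = 0.94 (Spearman's rho 0.94, and r = 0.93 when the 2 libraries with the most extreme Slc6a11 were dropped), and both had a strong slope on the bulb mean. Glul and Gja1 had r = 0.89 (rho 0.84), Aqp4 and Gja1 0.87 (rho 0.90), and the filament genes Gfap and Vim 0.85 (rho 0.80). Slc6a11 and Clu went opposite ways, with r = -0.79.

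Other astrocyte and reactive genes came from lists that share no gene with the 32, and their counts are read against the shares of all tested genes. Of 45 other astrocyte genes 13 were higher and 9 lower in heterozygous vehicle males, where 16.7% of all genes were higher and 20.0% lower. Fam107a at -0.89 ± 0.16, Fgfr2 at 0.75 ± 0.17 and Ednrb at 0.65 ± 0.15 had small p there. In vehicle females 0 of the 45 passed (limma; 3 had an unadjusted p under 0.05), and over both sexes 5 were higher and 2 lower, where 6.03% of all genes were higher and 7.12% lower. With the bulb mean 22 of the 45 went up and 4 down, where 22.7% of all genes went up and 26.6% down; Fgfr2 had a slope of 0.17 ± 0.01 and Paqr6 of 0.44 ± 0.04. Of 32 reactive astrocyte genes measured, 9 were higher and 0 lower in heterozygous vehicle males, with Amigo2 at 1.30 ± 0.25 and Iigp1 at 1.29 ± 0.28. Amigo2 also had a bulb slope of 0.27 ± 0.02 and Iigp1 one of 0.20 ± 0.04. With the bulb mean as a covariate, a setting added for these lists after their values were seen, 0 of the 45 and 0 of the 32 passed in vehicle males, where 0% of all genes did.

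Under fluoxetine in heterozygous mice 4 of the 32 reactive genes were higher and 0 lower (Osmr, Aspg, Cd14 and Serpina3n, with log2 differences from 0.54 to 0.86), where 2.21% of all genes were higher and 2.06% lower. Their list median was 0.24 on the log2 scale, against -0.03 for the 32 astrocyte genes and 0.00 for all genes. Without heterozygous fluoxetine male replicates 3 and 4, also a setting added after the values were seen, 0 of the reactive genes passed and their median was 0.05. Of the other astrocyte genes 1 was higher and 2 lower with the 2 males and 0 without them. Under lithium in heterozygous mice 1 other astrocyte gene passed, the thyroid hormone deiodinase gene Dio2 at 0.39 ± 0.10. Of the reactive genes 0 passed (2 had an unadjusted p under 0.05), where 0.497% of all tested genes passed.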

How the data were processed

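The authors deposited 1 table of normalised values for 18088 genes and 59 libraries, a signal obtained by dividing each gene's count by a size factor of the library; the values gave whole reads for 100% of entries within 0.01 once the factor was recovered, except that in 3 libraries the step was too close to 1 to tell. TruSeq Stranded mRNA libraries were made, per the labels' protocols. Salmon 0.11.2, R 3.6.0, DESeq2 1.19.11 and GRCm38 are named, with no role, per the submitters' processing notes. Recovered totals had a median of 27601196 counts per library. Genes with a value of at least 10 in at least 4 libraries were kept (17901), and log2(value + 1) was fitted with limma 3.58.1 in R 4.3.3, with 1 mean per group, 47 residual degrees of freedom, a variance trend and Benjamini-Hochberg adjustment over all genes, for 17 comparisons. Log2 differences understate the change of low genes. Alternatives were edgeR 4.0.16 on the recovered counts and the settings listed in the closing section; the model code was tested on simulated data. For the other gene lists and Dyrk1a, the settings with the bulb covariate and without 2 males were added after seeing the data. Values are given for genes that passed, at most 8 per comparison by smallest p, and for Gfap, Slc1a2, Aqp4 and Aldh1l1; genes named beyond that, such as the values in 2 fluoxetine males, were picked with their values in view. The 32 genes and all lists were chosen with earlier results of these data known, so a list's counts are a description. Promoter windows come from RefSeq (GRCm38.p6).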

Additional observations from a re-analysis of the deposited data

Results flagged for a closer look

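In 384 groups of 4 or 5 mice (32 genes in 12 groups), 23 values lay farther from the rest of their group than Dixon's 95% limit allows; chance alone gives about 1 group in 20. Values are normalised counts. Heterozygous fluoxetine female replicate 5 stood apart for Aldh1l1 at 1847 (highest; the others 1401 to 1463). Heterozygous fluoxetine male replicate 2 stood apart for Apoe at 34657 (highest; the others 24289 to 27152) and Id3 at 1028 (highest; the others 710.2 to 795). Heterozygous fluoxetine male replicate 3 stood apart for Ppp1r3c at 1772 (highest; the others 1025 to 1206). Heterozygous lithium male replicate 2 stood apart for Gjb6 at 1293 (lowest; the others 1609 to 1701) and S100b at 2135 (lowest; the others 2403 to 2463). Heterozygous vehicle female replicate 2 stood apart for Aqp4 at 5567 (highest; the others 3272 to 3719), Hepacam at 1732 (lowest; the others 2057 to 2091), Aldh1l1 at 1456 (lowest; the others 1565 to 1585) and Clu at 12440.4 (lowest; the others 15050.5 to 15966). Wild-type fluoxetine female replicate 2 stood apart for Mertk at 1265 (highest; the others 1172 to 1195). Wild-type fluoxetine female replicate 3 stood apart for Gjb6 at 1335 (lowest; the others 1474 to 1529). Wild-type fluoxetine female replicate 4 stood apart for Ntsr2 at 2438 (highest; the others 2045 to 2148). Wild-type fluoxetine male replicate 2 stood apart for Slc1a2 at 66074 (lowest; the others 72189 to 72949). Wild-type fluoxetine male replicate 4 stood apart for Gjb6 at 1703 (highest; the others 1346 to 1396). Wild-type lithium female replicate 2 stood apart for Agt at 269 (highest; the others 85.6 to 138). Wild-type lithium female replicate 4 stood apart for S100b at 2768 (highest; the others 2519.7 to 2588). Wild-type lithium male replicate 1 stood apart for Slc6a11 at 6324 (highest; the others 3485 to 3949) and Slc4a4 at 4565 (highest; the others 3671 to 3903). Wild-type lithium male replicate 3 stood apart for Gjb6 at 1908 (highest; the others 1380.4 to 1501) and Fgfr3 at 2490.3 (highest; the others 2181 to 2251). Wild-type vehicle male replicate 1 stood apart for Slc6a11 at 5438 (highest; the others 3526 to 3891) and Agt at 221 (highest; the others 69.8 to 90.9).

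The genotype difference under vehicle differed between females and males, by limma's interaction test with Benjamini-Hochberg adjustment, for 8 of the 32 genes. As the female minus the male log2 difference, Slc1a2 had 0.71 (adjusted p = 0.0166), Slc6a11 had -1.38 (adjusted p = 0.0282), Gjb6 had 0.36 (adjusted p = 0.0414), Aldoc had 0.39 (adjusted p = 0.0166), Ndrg2 had 0.39 (adjusted p = 0.02), Ntsr2 had 0.32 (adjusted p = 0.0378), Mertk had 0.72 (adjusted p = 0.0166) and Clu had 0.54 (adjusted p = 0.0144). In the vehicle males the mean of the olfactory bulb genes differed between the genotypes without overlap, and in the females it did not; with that mean as a covariate 0 of the 8 passed, and with only the 4 vehicle groups in the fit 0 passed.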

How the results depend on the processing

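All counts here are genes out of 32. Shares of all genes under these settings are not given here, so a change in a count is not a result particular to these genes. With the olfactory bulb mean as a covariate, the count that passed went from 4 to 0 for genotype under vehicle, from 15 to 0 in vehicle males, from 8 to 0 for the sex difference of the genotype effect, from 8 to 1 for genotype over all treatments, from 4 to 7 for fluoxetine in heterozygous mice and from 4 to 8 for fluoxetine over both genotypes, and the difference of Slc4a4 in vehicle males turned to -0.011. Without heterozygous fluoxetine males 3 and 4 it was 10 for genotype under vehicle, 13 for the sex difference, 3 and 1 for lithium in heterozygous and wild-type mice, 5 for lithium over both, 1 for fluoxetine in heterozygous and in wild-type mice, and 2 for fluoxetine over both. With both changes these were 0 for genotype under vehicle, over all treatments, in vehicle males and by sex, 3, 2 and 6 for lithium in heterozygous, wild-type and all mice, and 1 for fluoxetine in each genotype. With only the groups compared in the fit, 0 passed for genotype under vehicle, for the sex difference and for fluoxetine in heterozygous mice, 1 for lithium in wild-type mice and for fluoxetine over both genotypes, and 2 for fluoxetine in wild-type mice. Quantile normalization gave 4 for the sex difference, and edgeR gave 1 for genotype under fluoxetine. Leaving out 1 library at a time gave 0 to 11 for genotype under vehicle, 0 to 1 under fluoxetine, 4 to 10 over all treatments, 9 to 17 in vehicle males, 0 to 11 for the sex difference, 1 to 2 and 0 to 1 for lithium in heterozygous and wild-type mice, 1 to 9 and 2 to 8 for fluoxetine in heterozygous and all mice, and 0 to 3 for the difference of the fluoxetine effect between genotypes. Causes of these moves were not tested. Other settings kept each count within 1.5 times. For the 63 differences that passed, 443 of 574 values under other settings kept direction and call, 130 kept direction only and 1 reversed. The median of all genes moved by at most -0.03 on the log2 scale under another scaling. Replicate numbers did not pair the samples: over 319 same-numbered pairs the median correlation was -0.004, 65 were over 0.1, and 8 of 59 libraries correlated best with their own number; with a replicate block 14 genes passed in vehicle males (without S100b) and 3 for fluoxetine in heterozygous mice (without Acsbg1), and no other count changed. With at least 24391022 counts per library, chi-square per gene between replicates was 3.03 to 81.5, where counting error alone gives about 1.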
